A study of Rattus norvegicus with 6 samples.

Results

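The factors that build ribosomes were followed in rat aortic smooth muscle cells under flow. The 56 listed genes cover the small-subunit processome, later small-subunit factors, large-subunit factors, small nucleolar ribonucleoprotein (snoRNP) proteins, abundant nucleolar proteins and RNA polymerase I. Members were all probe sets annotated with exactly 1 of these symbols, which gave 74 probe sets of 54 genes, out of 31099 probe sets in all. Rrp36, a processome factor, had no such probe set, and the 3 probe sets that carry the symbol of the nucleolar chaperone Npm1 carry that of a pseudogene too and were left out. All 74 member probe sets lay above the filter on dim signals and were tested, so no member was lost to low values.

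The 6 Affymetrix rat arrays fall into 3 sheared cultures and 3 static control cultures, paired 1 to 3 by the labels. Sheared cells were confluent layers of passage 3 to 5 exposed to laminar flow at an arterial level of 14 dyn per square centimetre for 24 h in a parallel-plate chamber, and static controls had no flow. All cultures were grown in 10% serum and then synchronized for 24 h with 0.1% albumin instead. The labels give no strain, sex or age of the animals, nor what a pair shared, so the tests gauge only how far these cultures vary, and that variation may be technical. Values of several arrays are given in the order of pairs 1, 2 and 3.

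Ribosomes are assembled mainly in the nucleolus. RNA polymerase I transcribes the ribosomal RNA precursor, snoRNPs guide its chemical modification, and the small-subunit processome folds and cleaves the part that becomes the small subunit, while a separate set of factors matures the large subunit. Much of a growing cell's energy goes into this pathway, and the transcription factor Myc is known to drive many of its genes, often through the hexamer CACGTG, the E-box.

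The series gives each array at the same trimmed mean signal, so every difference is relative to the rest of that array's RNA. Correlations across probe sets were 0.980 to 0.993 among shear arrays, 0.987 to 0.991 among static arrays and 0.882 to 0.906 between the groups. Of 10 smooth muscle markers, 0 rose and 7 fell of 10 tested, and their summed signal was 5722 to 5818 on shear arrays and 8583 to 9571 on static arrays. Of 10 fibroblast markers, 3 rose and 4 fell of 9 tested, with sums of 4801 to 7614 on shear arrays and 5472 to 7895 on static arrays. Of 9 endothelial markers with a probe set, 1 rose and 1 fell of 5 tested, with sums of 211 to 225 on shear arrays and 219 to 251 on static arrays. Of 9 leukocyte markers, 2 rose and 1 fell of 5 tested, with sums of 149 to 192 on shear arrays and 204 to 256 on static arrays. Over all genes tested, 27.9% rose and 30.2% fell. Among the fallen, Lmod1 and Twist2 averaged below the limit of the filter on dim signals in sheared cells. Coro1a, which rose, did so in static cells. These genes were tested only because the other group lay above that limit, so the counts that hold them are a description. The defining markers Pecam1 and Vwf of endothelium were at most 8.6 and 7.7, and Ptprc of leukocytes at most 3, on any array. Other genes of these lists were brighter, among them Egfl7 of endothelium (75.8 to 125.2) and Cd14 of leukocytes (81.9 to 200.9). Cd68 of leukocytes rose, from a mean of 10.07 in static cells to 25.83 in sheared cells, while Cd14 fell. The 3′ probe set of beta-actin exceeded its 5′ probe set, a gauge of RNA integrity, by 0.393 ± 0.028 log2 units on shear arrays and 0.255 ± 0.036 on static arrays, and that of Gapdh by 0.156 ± 0.0062 on shear arrays and 0.166 ± 0.0097 on static arrays (SD, n = 3 each). The part of these markers and of RNA integrity in the results that follow was not tested.

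Most ribosome biogenesis factors rose under shear stress. Taking the brightest probe set of each gene, 45 of 54 members rose, 1 fell and 8 did not pass an adjusted p of 0.05 in limma, while 27.9% of all 11248 genes tested rose and 30.2% fell. The median change of the members was 0.86 on the log2(signal + 16) scale, against -0.05 over all genes tested. By probe set, 58 of 74 rose and 2 fell, while 24.3% of all 21729 probe sets tested rose and 28.5% fell, or 52.8% in either direction. That balance turned with the scaling, with 31.4% risen and 21.7% fallen after median centring and 27.4% and 24.8% after quantile normalization. At least 2-fold rises on that scale were seen in 19 member genes, beside 7.03% of all genes. In 61 member probe sets every shear array lay above every static array, which held for 27.1% of all probe sets, and in 3 every shear array lay below, beside 32.9%. In such bulk samples, more or fewer cells that express a gene cannot be told apart from more or less of its RNA per cell.

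**Figure D1:**
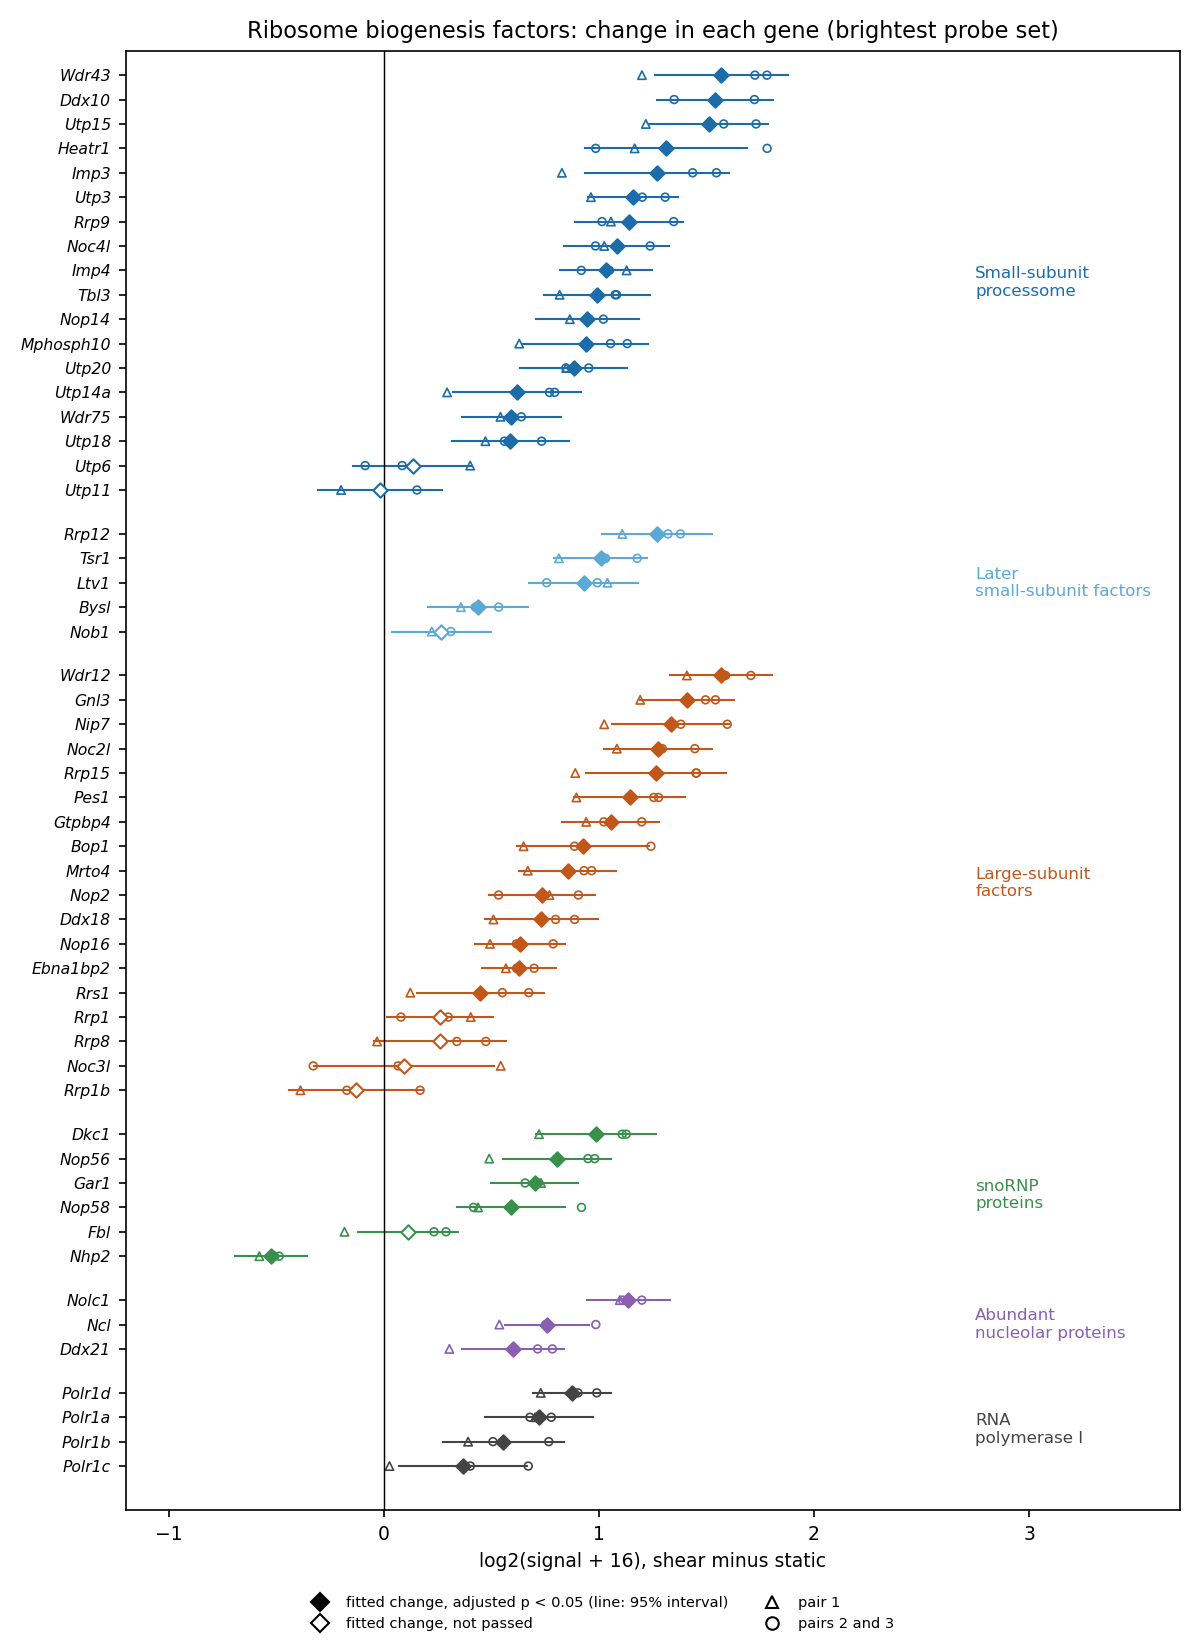
Change of each of the 54 member genes by its brightest probe set, on the log2(signal + 16) scale (x axis, shear minus static), grouped by role. Diamonds are fitted changes with 95% intervals (filled where the adjusted p passed), triangles pair 1 and circles pairs 2 and 3. Filled diamonds lie right of 0 for 45 genes and left of it for Nhp2 alone.

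Small-subunit processome genes rose in 16 of 18 cases with 0 fallen, beside 27.9% risen and 30.2% fallen of all genes tested. Their median change was 1.01. Large-subunit factors rose in 14 of 18 cases with 0 fallen and a median of 0.80. All 4 RNA polymerase I subunits rose by their brightest probe sets, with a median of 0.64. The brightest probe set was chosen on all 6 arrays, so a rise under shear could favour its own choice. On static arrays alone, the other Polr1d probe set, which fell (-0.76), was the brighter one. The ranges overlapped, from -0.02 to 1.57 in the processome, from -0.13 to 1.57 in large-subunit factors and from 0.37 to 0.87 in the polymerase, and the difference between these groups was not tested. Medians in pairs 1, 2 and 3 were 0.86, 1.00 and 1.11 for the processome, 0.66, 0.89 and 0.92 for large-subunit factors, and 0.55, 0.72 and 0.64 for the polymerase. The processome median was thus the highest and the polymerase median the lowest of these 3 groups in each pair.

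**Figure D2:**
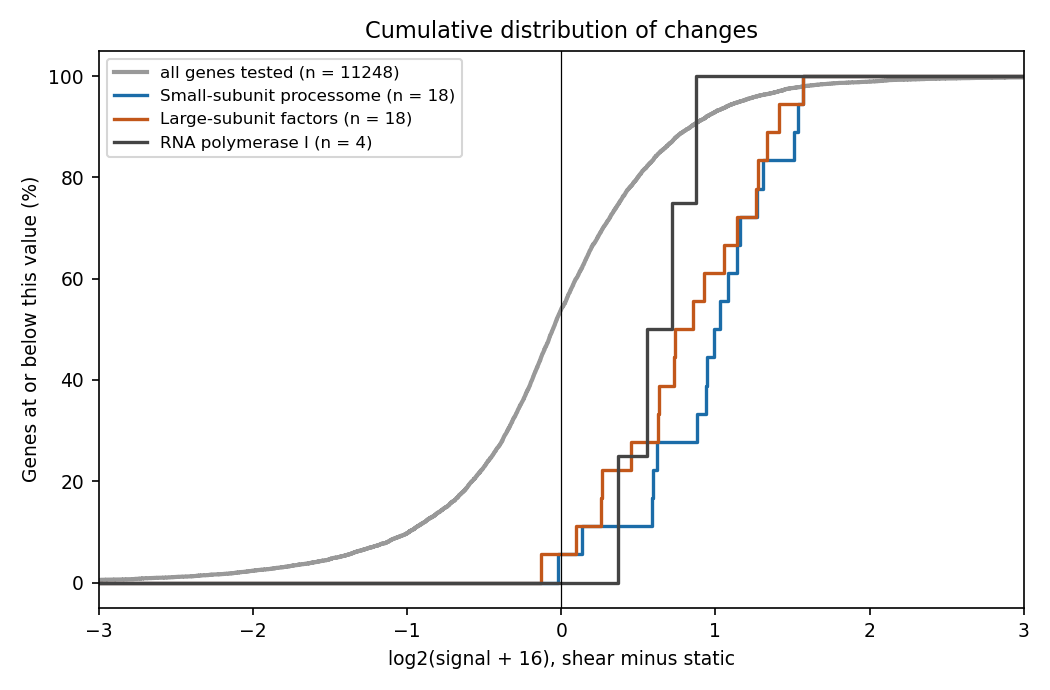
Cumulative share of genes (y axis, percent) at or below each change (x axis, shear minus static on the log2(signal + 16) scale) for processome genes (n = 18), large-subunit factors (n = 18), RNA polymerase I (n = 4) and all genes tested (n = 11248). The 3 member curves lie right of the curve of all genes over most of their range, with medians of 1.01, 0.80 and 0.64 against -0.05.

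The members' promoters were searched for the E-box CACGTG, which reads alike on both strands, in the window from 250 bases before to 50 bases after each gene's start. RefSeq promoters of build GRCr8 were matched for 50 of 54 members, and 18 (36%) held the motif, beside 9.68% of 9345 tested genes with a promoter and 6.42% of all 33469 windows in the table. It was found in 9 of 16 large-subunit windows, 4 of 5 of later small-subunit factors, 2 of 6 of snoRNP proteins and 3 of 16 of the processome, and in none of the 4 polymerase I windows. Among members, 14 of 41 risen genes held it and 4 of 9 of those that fell or did not pass. Over all tested genes the split ran the other way, 12.7% of 2665 risen and 8.47% of 6680 others, and neither split was tested. A match is a description of the letters only. Stretches before the start are shown for the risen members with the largest change in each role group that held the motif there, at most 2 a group, 5′ to 3′ on the gene's own strand with the E-box in capitals.
Gnl3: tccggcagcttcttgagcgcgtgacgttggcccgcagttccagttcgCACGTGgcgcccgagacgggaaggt
Pes1: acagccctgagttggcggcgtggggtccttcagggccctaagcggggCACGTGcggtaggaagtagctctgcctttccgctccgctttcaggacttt
Ltv1: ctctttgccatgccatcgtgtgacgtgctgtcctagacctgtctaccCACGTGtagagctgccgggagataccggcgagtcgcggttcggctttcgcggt
Dkc1: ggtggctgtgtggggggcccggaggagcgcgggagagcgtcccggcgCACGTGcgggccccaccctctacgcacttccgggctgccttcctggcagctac
Utp20: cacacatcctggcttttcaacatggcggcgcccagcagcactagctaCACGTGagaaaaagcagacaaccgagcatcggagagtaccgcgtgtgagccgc
Wdr75: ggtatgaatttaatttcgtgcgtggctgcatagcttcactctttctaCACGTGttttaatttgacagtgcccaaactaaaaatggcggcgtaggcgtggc
In GRCr8 the Gnl3 stretch is chr16:6219783-6219854 on the minus strand, its motif beginning 25 bases before the start. For Pes1 it is chr14:83074249-83074345 on the plus strand, its motif beginning 50 bases before the start. For Ltv1 it is chr1:9398566-9398665 on the minus strand, its motif beginning 61 bases before the start. The Dkc1 stretch is chrX:157751420-157751519 on the plus strand, its motif beginning 184 bases before the start. In Utp20 it is chr7:25102924-25103023 on the minus strand, its motif beginning 127 bases before the start. In Wdr75 it is chr9:55395025-55395124 on the plus strand, its motif beginning 160 bases before the start. All 6 lie upstream of the annotated start because only such stretches were picked, from a window that begins 250 bases before it. Other members, among them Rrp15, Rrp12, Tsr1 and Fbl, held the motif only after the start. The changes of these 6 genes were 1.41, 1.14, 0.93, 0.99, 0.88 and 0.59 in the same order.

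Within the processome, the largest rises by brightest probe set were those of Wdr43, Ddx10, Utp15 and Heatr1. Wdr43, Utp15 and Heatr1 belong to the subcomplex known in yeast as t-UTP, which joins the precursor first and is needed for its transcription. They were named for the size of their change and do not stand for the whole subcomplex. Whether it rose more than other processome genes was not tested. The brightest Wdr43 probe set had signals of 339, 462 and 519 in sheared cells, against 139, 128 and 139.7 in static cells. Its lowest shear value was more than double its highest static value, and it rose (log2 change 1.57, SE 0.13, adjusted p = 5.21e-05). The other Wdr43 probe set, the brighter one in static cells, did not pass (0.05). Utp15 gave 479, 610.2 and 549 in sheared cells, against 197, 173 and 173 in static cells, with no overlap (log2 change 1.51, SE 0.12, adjusted p = 3.61e-05). For Heatr1, a large scaffold protein, signals were 175, 168 and 224 in sheared cells, against 69.1, 77 and 53.9 in static cells. Static array 3 was the lowest and shear array 3 the highest, so pair 3 had the largest difference, with 1.17, 0.99 and 1.78 in pairs 1 to 3 (log2 change 1.31, SE 0.16, adjusted p = 0.00033).

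Ddx10, a DEAD-box RNA helicase whose yeast counterpart acts in small-subunit processing, had signals of 211, 248 and 285 in sheared cells, against 62, 87.7 and 75.3 in static cells. The mean was 248 ± 37.2 in sheared cells and 75 ± 12.9 in static cells (SD, n = 3 each), a ratio of 3.31 (log2 change 1.54, SE 0.12, adjusted p = 3e-05). Utp3, a processome component chosen for the highest signal in its group, gave 971, 1192 and 1203 in sheared cells, against 490.2, 509 and 476 in static cells, again without overlap (log2 change 1.16, SE 0.09, adjusted p = 3.52e-05). The other 11 risen processome genes changed by 0.59 to 1.27. They include the 3 parts of the Mpp10 complex, Imp3 (1.27), Imp4 (1.03) and Mphosph10 (0.94), the partners Nop14 (0.95) and Noc4l (1.08), and Rrp9 (1.14), a protein of the U3 snoRNP. These examples and the genes that did not pass were picked after their values were seen.

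Utp6 and Utp11 were the 2 processome genes that did not pass. Utp6, part of the UTP-B subcomplex, had 314, 244 and 254 in sheared cells, against 234, 259.9 and 239 in static cells on its brightest probe set. The groups overlapped (log2 change 0.13, adjusted p = 0.377), and its other 2 probe sets had changes of -0.03 and 0.13. Tbl3 (0.99) and Utp18 (0.59), which belong to the same subcomplex, rose. Utp11 had 39.6, 53 and 47 in sheared cells, against 47.8, 46 and 47.4 in static cells, with overlapping groups (log2 change -0.02, adjusted p = 0.915).

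**Figure D3:**
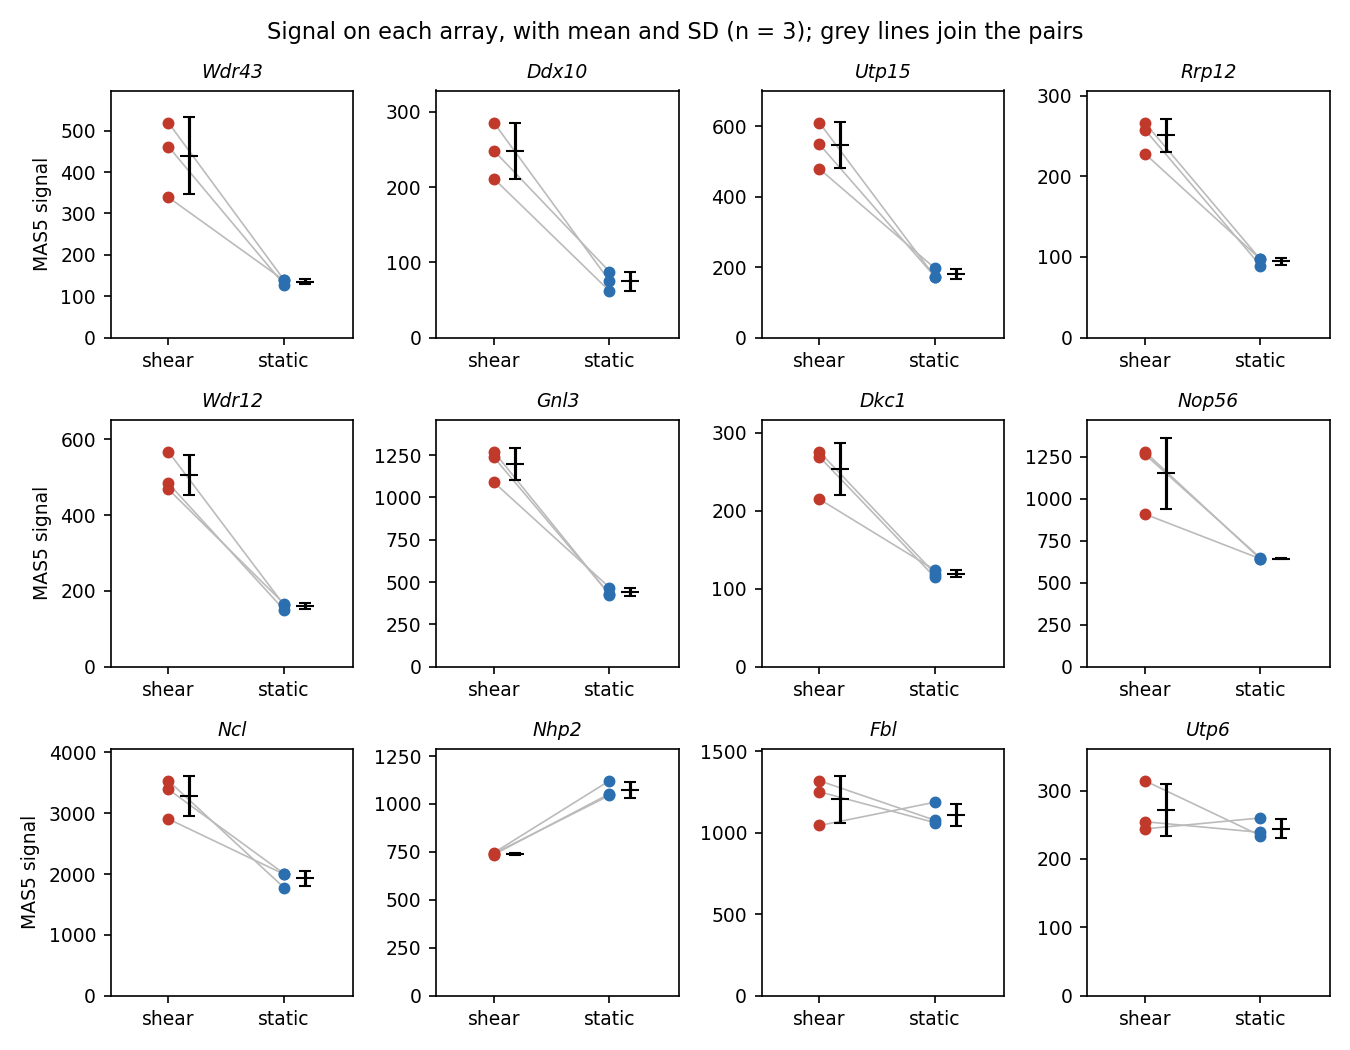
MAS5 signal (y axis, linear, from 0, a scale of its own in each panel) on the 3 shear and 3 static arrays for 12 members, with mean and SD beside the points and grey lines joining pairs. Shear points lie above static points without overlap in Wdr43, Ddx10, Utp15, Rrp12, Wdr12, Gnl3, Dkc1, Nop56 and Ncl, below them in Nhp2, and overlap with them in Fbl and Utp6.

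The later small-subunit factors carry the precursor out of the nucleolus and through its final steps in the cytoplasm. Of these factors 4 of 5 rose, with a median of 0.93, beside 27.9% risen of all genes tested. Rrp12, an export factor, had 228, 258 and 266 in sheared cells, against 97.2, 89.3 and 97 in static cells, and all 3 of its probe sets rose, by 1.27, 0.86 and 0.92. Tsr1, a GTPase-like assembly factor, gave 978, 986 and 947 in sheared cells, against 549, 427 and 455 in static cells (log2 change 1.01, SE 0.09, adjusted p = 7.75e-05). Both separated the groups by a wide margin. Ltv1, which leaves the particle in the cytoplasm, rose by 0.93 with signals of 222, 263 and 242 in sheared cells, against 99.8, 124 and 137 in static cells. Bysl, a pre-ribosome factor of nucleolus and nucleus, had the smallest rise of these, with 228, 251 and 251 in sheared cells, against 174, 182 and 168 in static cells (log2 change 0.44, SE 0.10, adjusted p = 0.00721). Its call was lost without pair 2 (adjusted p = 0.0577) and without pair 3 (adjusted p = 0.0863; 0.000128 to 0.0863 over all 13 alternatives). Nob1, the endonuclease of the last cleavage, had every shear array above every static array but missed the threshold (log2 change 0.27, adjusted p = 0.0526), and passed in 8 of the alternatives (0.0101 to 0.283 over all 13 alternatives).

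In the large-subunit group, Wdr12, Gnl3, Nip7 and Noc2l had the largest rises. Wdr12 forms the PeBoW complex with Pes1 and Bop1, which is needed for processing of large-subunit RNA, and its signals were 468, 567 and 484 in sheared cells, against 166, 163 and 150.1 in static cells. Sheared cells averaged 506 ± 53.2 and static cells 159.6 ± 8.45 (SD, n = 3 each; log2 change 1.57, SE 0.10, adjusted p = 1.49e-05). The partners rose too, Pes1 by 1.14 with 349, 490.3 and 487 in sheared cells, against 180.2, 196 and 192 in static cells, and Bop1 by 0.93. No member of this complex had overlapping groups.

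Gnl3, or nucleostemin, a GTP-binding nucleolar protein of proliferating cells, had 1089, 1269.8 and 1237 in sheared cells, against 468, 426 and 428 in static cells. Its groups were separated by a gap larger than the static signal itself (log2 change 1.41, SE 0.09, adjusted p = 1.62e-05). Nip7, an early large-subunit factor, gave 716, 914 and 975 in sheared cells, against 344, 341 and 312 in static cells (log2 change 1.33, SE 0.12, adjusted p = 6.05e-05). Noc2l, which also binds p53 in human cells, gave 339, 381 and 419.9 in sheared cells, against 152, 146 and 144 in static cells (log2 change 1.27, SE 0.11, adjusted p = 5.26e-05). In both, all shear values were more than double the highest static value. Ebna1bp2, a nucleolar assembly factor chosen for the highest signal in the group, gave 1000.2, 1107 and 1017 in sheared cells, against 669.6, 676 and 657 in static cells (log2 change 0.63, SE 0.07, adjusted p = 0.000273). The other 9 risen genes changed by 0.45 to 1.27, the smallest being Rrs1, whose call was lost without pair 2 (adjusted p = 0.108) and without pair 3 (adjusted p = 0.156; 5.13e-06 to 0.156 over all 13 alternatives).

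The 4 large-subunit genes that did not pass were Rrp1, Rrp1b, Rrp8 and Noc3l. The paralogs Rrp1 and Rrp1b had changes of 0.26 (adjusted p = 0.0698) and -0.13 (adjusted p = 0.444) on their brightest probe sets. Every shear array lay above every static array for Rrp1, which passed after median centring (0.41; adjusted p 0.0115 to 0.286 over all 13 alternatives). A dimmer Rrp1b probe set rose, with 61.9, 50.7 and 61 in sheared cells, against 41.9, 27.5 and 31.7 in static cells (log2 change 0.58, adjusted p = 0.00447), and the third did not pass (0.06). Rrp8, a methyltransferase of large-subunit RNA, changed by 0.26 (adjusted p = 0.136) and passed after median centring and without pair 1. Noc3l, needed for large-subunit export in yeast, had low signals of 16.8, 8.7 and 15 in sheared cells, against 6.5, 15 and 13.6 in static cells, with overlapping groups (log2 change 0.09, adjusted p = 0.689).

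Among the snoRNP proteins 4 of 6 rose, 1 fell and 1 did not pass, with a median of 0.65. Of all genes tested 27.9% rose and 30.2% fell. In the H/ACA class, which converts uridine to pseudouridine, the enzyme Dkc1 had 215, 269 and 276 in sheared cells, against 124, 115 and 119 in static cells, and rose (log2 change 0.99, SE 0.12, adjusted p = 0.00031). Its partner Gar1 had 476, 483 and 497 in sheared cells, against 280.2, 300.1 and 296 in static cells, and rose too (log2 change 0.70, SE 0.09, adjusted p = 0.000347). Neither had overlapping groups. Nhp2, a core protein of the same particle, fell, with 746, 736 and 741 in sheared cells, against 1121, 1053 and 1045 in static cells. All shear values lay below all static values and differed little among themselves, 741 ± 4.76 in sheared and 1073 ± 41.9 in static cells (SD, n = 3 each; log2 change -0.52, SE 0.07, adjusted p = 0.000573). Nop10, the remaining core protein and not a member, had a change of -0.17 (adjusted p = 0.213).

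In the C/D class, which methylates ribose, the scaffold proteins Nop56 and Nop58 rose. Nop56 had 909, 1266 and 1281 in sheared cells, against 643, 648 and 641 in static cells, with static arrays nearly identical and shear array 1 well below the other two (log2 change 0.81, SE 0.11, adjusted p = 0.000498). Nop58 had 1164, 1423 and 1474 in sheared cells, against 854, 1061 and 772 in static cells, and its groups came close, with static array 2 just under shear array 1 (log2 change 0.59, SE 0.11, adjusted p = 0.00233). Fbl, or fibrillarin, the methyltransferase that these proteins hold, had 1043, 1250.0 and 1318 in sheared cells, against 1186, 1061 and 1076 in static cells. Its groups overlapped, with a negative difference in pair 1 and positive ones in pairs 2 and 3 (-0.18, 0.23 and 0.29, adjusted p = 0.377), and it passed without pair 1 (0.26; adjusted p 0.000699 to 0.903 over all 13 alternatives). That fit rests on 2 pairs.

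All 3 abundant nucleolar proteins tested rose, beside 27.9% of all genes tested. Ncl, or nucleolin, which binds the precursor and nucleolar chromatin, had 2904, 3392 and 3533 in sheared cells, against 1996, 2006 and 1776 in static cells. Sheared cells averaged 3276 ± 329.9 and static cells 1926 ± 130.0 (SD, n = 3 each; log2 change 0.76, SE 0.08, adjusted p = 0.000198). Nolc1, a chaperone of snoRNPs, gave 752, 713 and 805 in sheared cells, against 343, 322 and 342 in static cells on its brightest probe set (log2 change 1.14, SE 0.08, adjusted p = 2.58e-05). The helicase Ddx21 rose on both probe sets, by 0.60 and 0.61, with 1094, 1391 and 1467 in sheared cells, against 883, 841 and 845 in static cells on the brighter. On the brightest probe set of each of these 3 genes the shear arrays lay above the static arrays without overlap.

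The RNA polymerase I subunits rose by their brightest probe sets. Polr1a, the largest subunit, had 114, 106 and 126 in sheared cells, against 63.8, 60.1 and 66.9 in static cells (log2 change 0.72, SE 0.11, adjusted p = 0.000897). Polr1b, which forms the active centre with it, had 94.5, 116 and 118 in sheared cells, against 68.2, 61.8 and 77.9 in static cells (log2 change 0.56, SE 0.12, adjusted p = 0.00581), and lost its call without pair 2 (adjusted p = 0.0655; 7.98e-05 to 0.0655 over all 13 alternatives). For both catalytic subunits the groups were apart. Polr1c, shared with RNA polymerase III, had 379, 523 and 496 in sheared cells, against 372, 323 and 371 in static cells, a rise close to the threshold (log2 change 0.37, adjusted p = 0.0431). Shear array 1 was only just above the static arrays, and the call was lost after quantile normalization, without the filter, without the intensity trend, and without pair 2 (0.21) or pair 3 (0.35), with adjusted p from 1.07e-05 to 0.32 over all 13 alternatives.

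Polr1d, the other subunit shared with RNA polymerase III, was called in opposite directions on its 2 probe sets. The brighter had 1369, 1430.2 and 1456 in sheared cells, against 819, 712 and 771 in static cells, so that it rose in every pair (log2 change 0.87, SE 0.08, adjusted p = 6.67e-05). The dimmer had 462, 513 and 610.1 in sheared cells, against 951, 828 and 919 in static cells, so that it fell in every pair (log2 change -0.76, SE 0.10, adjusted p = 0.00051). Neither probe set had overlapping groups. In static cells alone the order of brightness was reversed, with a mean of 767.4 on the first and 899.4 on the second. The platform annotation does not say which Polr1d transcript each one reads, and no direction can be given for the gene as a whole.

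Of the 15 members with several probe sets, 10 rose on every one. The other 5 were Polr1d, Utp6, Rrp1b, Wdr43 and Nolc1. By single probe set 24.3% of all tested rose, and the share of all genes that rose on every probe set was not counted. The second Wdr43 probe set had 199, 187 and 219.7 in sheared cells, against 204, 173 and 204 in static cells, with overlapping groups and no change past the threshold (0.05, adjusted p = 0.683), against 1.57 on the first. Its static mean was the higher, 193.8 against 135.5 on the first. Nolc1 rose on 2 of 4 probe sets (1.14 and 0.93), while the others had changes of 0.05 and -0.26, the last from signals of at most 11.7. For these genes the size of the rise depends on which probe set is read.

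**Figure D4:**
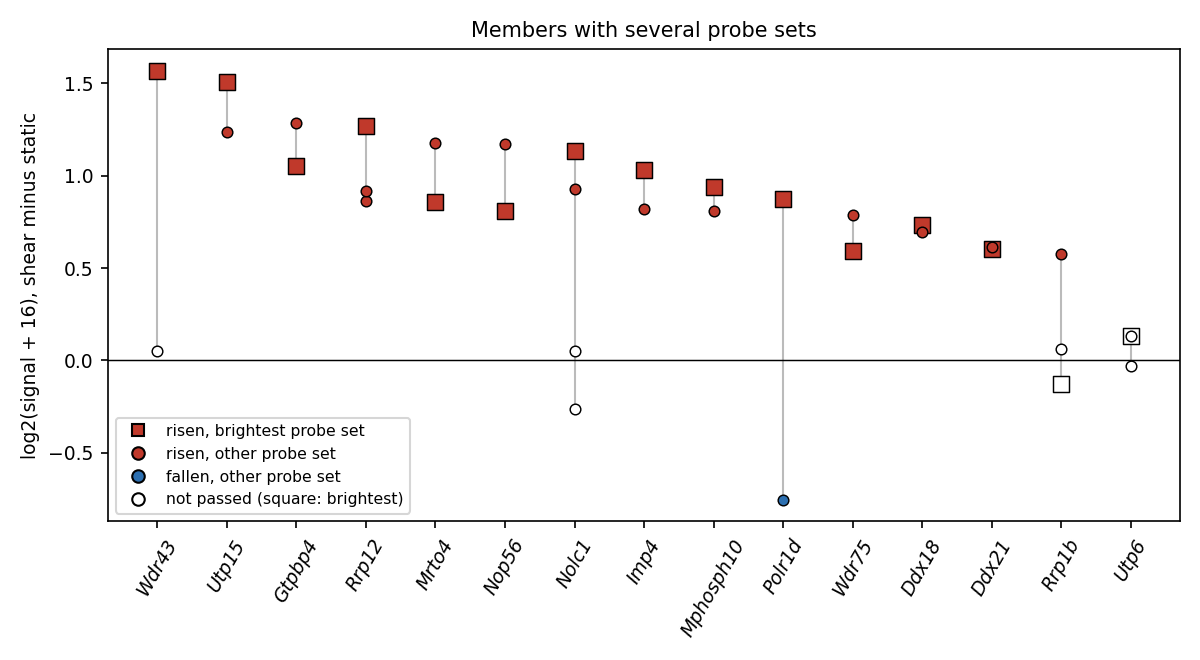
Change on each probe set (y axis, shear minus static on the log2(signal + 16) scale) of the 15 members with several probe sets. Squares are the brightest probe set of a gene and circles the others, red risen, blue fallen and white not passed. Polr1d has its square and its circle on opposite sides of 0, at 0.87 and -0.76.

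The members also varied by pair. The change was smallest in pair 1 for 40 of 54 member genes, in pair 2 for 10 and in pair 3 for 4, whereas pair 1 was the smallest for 34.7% of all genes tested. Medians over the members were 0.71, 0.95 and 0.92 in pairs 1 to 3. In each pair the median was above that of all genes, which was -0.0034, -0.0704 and -0.06. In all 3 pairs 47 member genes were higher under shear, beside 35.2% of all genes.

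Other ribosome biogenesis genes, listed by their known roles, mostly rose as well, though these lists were chosen with earlier results of these data known. Of 96 tested in 4 lists, 72 rose and 4 fell, with a median change of 0.73, beside 27.9% risen and 30.2% fallen of all genes tested. Among 34 further small-subunit factors 28 rose and 0 fell (median 0.74), led by the kinase Riok2 (1.38), the methyltransferase Bud23 (1.37) and Aatf (1.29). Among 43 large-subunit factors 34 rose and 2 fell (median 0.80), with the largest rises in Sdad1 (1.99), Surf6 (1.57) and Nifk (1.45). Sdad1 had signals of 558, 566 and 547 in sheared cells, against 128, 139 and 119 in static cells, a larger change than that of any member. The 2 that fell were the nuclease Las1l (-0.49) and Wdr18 (-0.61). Of their partners in one human complex, Tex10 rose (0.88), while Pelp1 (0.13) and Senp3 (0.21) did not pass, and these 3 were looked up after the values were seen. Las1l lost its call after median centring (-0.34).

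Of 9 other snoRNP and assembly genes 4 rose and 1 fell (median 0.17), beside 27.9% risen and 30.2% fallen of all genes tested. The C/D assembly factors Znhit3 (1.07) and Nufip1 (0.83) and the H/ACA assembly factor Shq1 (0.65) rose most. Tcof1, or treacle, a nucleolar protein needed for transcription by RNA polymerase I, fell (log2 change -0.68, SE 0.12, adjusted p = 0.00214), with 56, 43.9 and 55.5 in sheared cells, against 89.4, 95.2 and 92.9 in static cells. It also fell on a second probe set (-0.52), and the third did not pass (-0.25).

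The polymerases were set out by subunit, and their counts stand beside 27.9% risen and 30.2% fallen of all genes tested. Among 10 further RNA polymerase I subunits, initiation factors and the termination factor Ttf1, 6 rose and 1 fell (median 0.39). The subunits Polr1e (1.05) and Polr1f (1.04) and the promoter-selectivity factor Taf1c (0.70) rose most, and Taf1b, of the same promoter factor, fell (log2 change -0.36, SE 0.12, adjusted p = 0.0376). Rrn3, a risen initiation factor (0.27), lost its call after quantile normalization (0.21), while its dimmer probe set rose by 0.53. Ubtf did not pass on its brightest probe set (0.27). A dimmer one of its 4 probe sets rose (1.03), and the others did not pass. The Taf1b call was lost after quantile normalization (-0.21) and median centring (-0.21). Of 8 RNA polymerase III genes 6 rose and 0 fell (median 0.91), including Polr3g (1.73), Polr3e (1.45) and Polr3d (0.96). The 5 subunits that all 3 polymerases share gave 1 risen, Polr2k (0.69), and 3 fallen, Polr2e (-0.81), Polr2f (-0.81) and Polr2l (-0.77) (median -0.77). Polr2e had 221, 253 and 206 in sheared cells, against 429, 389 and 409 in static cells, with all shear arrays below all static ones, whereas a dimmer Polr2f probe set rose (0.37). Of 7 RNA polymerase II subunits 3 rose and 0 fell (median 0.15), with Polr2d (0.86), Polr2a (0.50) and Polr2g (0.42) the largest. Differences between these lists were not tested.

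**Figure D5:**
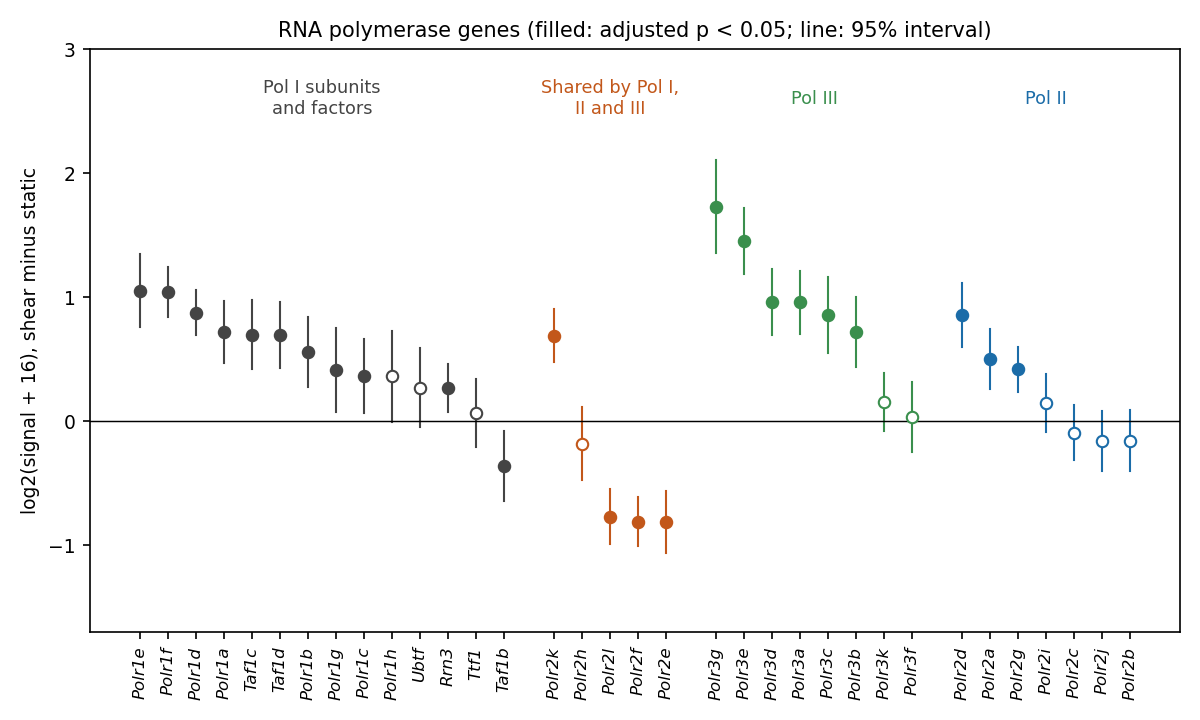
Change (y axis, shear minus static on the log2(signal + 16) scale, with 95% intervals) of RNA polymerase genes by their brightest probe set, filled where the adjusted p passed. RNA polymerase III genes reach 1.73, while 3 of the 5 subunits shared by all polymerases lie between -0.81 and -0.77.

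Of 11 tested genes of the Myc network, whose dimers bind the E-box, 4 rose and 3 fell, beside 27.9% and 30.2% of all genes tested. Myc itself rose, with 666, 729.6 and 748 in sheared cells, against 374, 378 and 409 in static cells (log2 change 0.86, SE 0.08, adjusted p = 9.39e-05). Its shear values were all well above its static values. Mnt, which competes with Myc for the partner Max, rose by 1.09, with 229, 249.9 and 249 in sheared cells, against 109, 102 and 105 in static cells, and the Max partners Mga (0.90) and Mxi1 (0.70) rose too. The Mxi1 groups overlapped, and its differences were -0.05, 1.09 and 1.06 in pairs 1 to 3. Max did not pass (0.11, adjusted p = 0.319), nor did Mlx (0.23), Mxd1 (0.31) and Mycl (0.00). The repressor Mxd4 fell (log2 change -1.61, SE 0.15, adjusted p = 7.37e-05). Its relative Mxd3 had 4.4, 5.8 and 6.1 in sheared cells, against 66.1, 58.9 and 60.6 in static cells. Mycn, a paralog of Myc, had 0.9, 1.1 and 1.5 in sheared cells, against 22.3, 14.1 and 13 in static cells. Sheared cells lay below the limit of the filter on dim signals for Mycn and Mxd3, which were tested only because static cells lay above it, so their levels are given as a description, and 3 fallen counts both. Whether the Myc network bears on the members was not tested.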

How the data were processed

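The values are intensities on a linear scale, made by the authors with MAS5, per the submitters' processing notes. Its version was not given in the sources used here. On each array, the mean without the outer 2% is 100.0. Of 31099 probe sets 57 are controls; 20826 others carry 1 gene symbol in the platform annotation, 436 several and 9780 none. A RefSeq table of assembly GRCr8 matched 20758 of those with 1 and changed 0 symbols. The small number of arrays limits precision.

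A pseudocount of 16 was added before log2, which understates changes of dim genes, and probe sets in the dimmest 30% by mean signal were dropped. The comparison used limma 3.58.1 in R 4.3.3 (lmFit, then eBayes with an intensity trend, two-sided) with pairing number as a fixed block and Benjamini-Hochberg adjustment over all 21729 probe sets tested. It was tested on simulated arrays, which held no pair effect and far fewer changed probe sets than were called here. The labels state the pairing, though deviations from group means correlated by only 0.0712, 0.0648 and 0.0626 within pairs 1 to 3. The probe set with the highest mean signal over all 6 arrays stood for a gene, so a rise under shear could favour its own choice. Where a gene had several promoter windows, the first listed was searched.

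Members and gene lists were chosen with earlier results of these data known. Named by rule were all polymerase I subunits; per other role group, at most 4 genes a direction, by size of change among those called with 1 sign in all pairs, and the gene with the highest signal; genes with opposite calls; per other list, at most 3 a direction; and the Myc network. Other genes were named after their values were seen. Alternatives were no block or a random one, quantile normalization, median centring, other filters, pseudocounts and thresholds, eBayes without trend or robust, each pair left out, and means over probe sets.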

Additional observations from a re-analysis of the deposited data

Results flagged for a closer look

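The control probe set for 5S ribosomal RNA, outside the comparisons above, was brighter in sheared cells. Its signal was 463, 201 and 299 on shear arrays 1 to 3 (mean 321.0) and 107, 89.1 and 90.8 on static arrays 1 to 3 (mean 95.5), a ratio of 3.36. It was picked out because every shear array lay above the static controls in a measurement that the gene comparison leaves out. Whether this probe set follows the amount of 5S RNA in the cells was not tested.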

How the results depend on the processing

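Calls changed little without the block: 58 member probe sets rose with the pair block and 59 with no replicate block, and the 45 risen and 1 fallen member genes were 46 and 1 without it. Of 60 called member probe sets, 56 had the same call in all 13 alternative fits, and the 4 that did not were Bysl, Rrs1, Polr1b and Polr1c. Risen member probe sets numbered 54 to 61 with a pair left out, each fit then resting on 2 pairs, while 17.8 to 26.8% of all probe sets rose. The order of medians, processome above large-subunit factors above RNA polymerase I, was the same in 14 of 14 alternatives. Several of these could not alter it. No block, a random block, no filter and both other eBayes settings gave unchanged medians, and median centring shifted all genes alike. Every alternative also reused the same member genes. Outside the members, the median was 0.74 for further small-subunit factors, later ones included, and 0.80 for further large-subunit factors. There the large-subunit median was thus the higher. Median centring, which moves the median of all probe sets from -0.067 to 0.082, raised the medians to 1.16 (processome), 1.08 (later small-subunit factors), 0.95 (large-subunit factors), 0.79 (polymerase I) and 1.01 (all members), and left 2 other biogenesis genes fallen in place of 4 and 83 risen in place of 72; these risen genes numbered 62 to 76 with a pair left out. A pseudocount of 64 gave 0.85 for the processome, 0.74 for later small-subunit factors and 0.43 for polymerase I, as a larger pseudocount shrinks changes; polymerase I gave 0.75 with a pseudocount of 1 and 0.46 as a mean over probe sets, where Polr1d's probe sets oppose each other. Signs turned only where no call was made: Utp6 probe set 1 without pair 1 (-0.0002; range without a pair -0.0002 to 0.2438), Utp6 probe set 2 and Utp11 after quantile normalization (0.032 and 0.13) and median centring (0.12 and 0.13), Rrp1b probe set 1 after median centring (0.019), and, with a pair left out, Utp11 (-0.104 to 0.073), Noc3l (-0.13 to 0.31) and Nolc1 probe set 2 (-0.035 to 0.205). The cause was not tested. Without detection calls, signals as low as Noc3l's may be background.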

Other observations

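Genes that trim ribosomal RNA and related precursors gave mixed calls. Of 21 genes, those of the RNA exosome, its helpers, ribonucleases P and MRP and the exonuclease Xrn2, 9 rose and 3 fell (median 0.24), beside 27.9% and 30.2% of all genes tested. The ribonuclease P subunit Rpp14 had 322, 679 and 630.1 in sheared cells, against 224, 258 and 209.5 in static cells (log2 change 1.12, SE 0.18, adjusted p = 0.00144), and shear array 1 lay well below shear arrays 2 and 3. The exosome helper Mphosph6 (0.90) and the exosome subunit Exosc3 (0.73) rose too. Pop5, a subunit of both ribonucleases, fell, with 68.1, 59 and 47.3 in sheared cells, against 149, 138 and 142 in static cells (log2 change -1.11, SE 0.12, adjusted p = 0.000169) and without overlap, and its second probe set fell as well (-0.84). Among exosome subunits, Exosc8 (-0.59) and Exosc2 (-0.43) fell, the last losing its call after median centring (-0.28). Risen and fallen genes thus occurred within the exosome and within ribonucleases P and MRP.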
